A study of Homo sapiens with 12 samples.

Results

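The scrambled shRNA controls of the series are 6 of its 12 Affymetrix expression arrays, 3 titled for the leukaemia line MV4-11 and 3 for the leukaemia line U937. They were chosen by their titles alone. MV4-11 was set against U937 over 11468 autosomal genes of the 11963 genes that the deposited table names. Both lines grew in RPMI with fetal bovine serum and antibiotics, and both carried a lentiviral pRRL.H1.shRNA vector with green fluorescent protein and a non-silencing scrambled hairpin, so neither group is unmanipulated. Arrays are named by line and replicate number, as in U937 1, and a call named as lost without an array refers to the fit that leaves that array out. The other 6 arrays hold the same lines, 3 each, with an shRNA against CHD4. That target is written CDH4 in the sample labels but CHD4 in the text of the series, and CHD4 is used here. The text of the series calls the triplicates biological. Each line is a single culture of long standing, so the 3 arrays of a line measure the spread within that culture. A property of the line cannot be told apart from one of the individual tumour it came from.

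Both lines are used as models of acute myeloid leukaemia of monocytic type. U937 carries a fusion of PICALM to MLLT10. MV4-11 carries a fusion of KMT2A to AFF1 together with an activating internal duplication in FLT3, the receptor for FLT3 ligand. Fusions of either kind are known for raised HOXA cluster and MEIS1 expression, a homeobox programme that blocks differentiation.

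Values are log2 RMA values: 1 unit is a doubling of signal, and differences are always MV4-11 minus U937. Over all genes, arrays of one line correlated at r = 0.995 to 0.997 in U937 and 0.993 to 0.995 in MV4-11, and arrays of different lines at 0.984 to 0.992. Scrambled and CHD4 shRNA arrays of MV4-11 correlated at 0.974 to 0.991, a range that reaches lower. These correlations are across genes, which are not independent replicates. CHD4 itself, the ATPase that the other arrays' shRNA targets, read 10.31, 10.38 and 10.71 in U937 and 10.65, 10.69 and 10.68 in MV4-11, a difference of 0.21 (adjusted p = 0.45). Of 30 measured markers of B, T, NK, erythroid, megakaryocyte, fibroblast and epithelial cells, 0 differed past the threshold (limma, adjusted p under 0.05). That threshold was passed by 5.47% of all autosomal genes, so a count of 0 among 30 markers says little about these cell types. Of 6 measured monocytic markers, 1 was lower in MV4-11 (the integrin ITGAM), and of 5 granulocyte precursor markers, 2 were lower (CTSG and ELANE). CD14, the lipopolysaccharide co-receptor of mature monocytes, read 5.14, 5.29 and 5.18 in U937 and 5.06, 5.13 and 4.96 in MV4-11, a difference of -0.15 (adjusted p = 0.528). The lines' arrays lay just apart. CSF1R, the receptor of macrophage colony-stimulating factor, differed by 0.36 (adjusted p = 0.256), FCN1 by 0.18 (adjusted p = 0.501) and LYZ, lysozyme, by -0.49 (adjusted p = 0.146). The deposited table gives no detection calls, so whether a dim gene was expressed cannot be read from it.

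A small share of autosomal genes passed the threshold between the lines, and a gene not called was not shown to be equal. An adjusted p under 0.05 was reached by 627 of 11468 genes (5.47%), 340 higher in MV4-11 (2.96%) and 287 lower (2.5%). A difference of at least 2-fold was reached by 147 of them (1.28%), 94 higher (0.82%) and 53 lower (0.462%), and of at least 4-fold by 33 higher (0.288%) and 11 lower (0.0959%). The larger differences were therefore more often toward MV4-11. The median difference over all genes was -0.03, the median size of a difference was 0.133, and 93.3% of genes lay within 0.5 of each other. The median standard error was 0.121, close to that median size. The 3 arrays of one line lay wholly above the 3 of the other in 3037 genes (26.5%), 1386 with MV4-11 above (12.1%) and 1651 with it below (14.4%). Were the 6 arrays exchangeable, a share of 0.1 of genes would be expected to lie so. The count of calls depends on single arrays: it was 303 without U937 replicate 1, 310 without U937 replicate 2, 322 without MV4-11 replicate 2 and 323 without MV4-11 replicate 3. Without the dimmest 25% of genes, 62 rather than 94 genes were at least 2-fold higher and 51 rather than 53 at least 2-fold lower. The lean of these differences toward MV4-11 was therefore smaller among brighter genes.

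**Figure D1:**
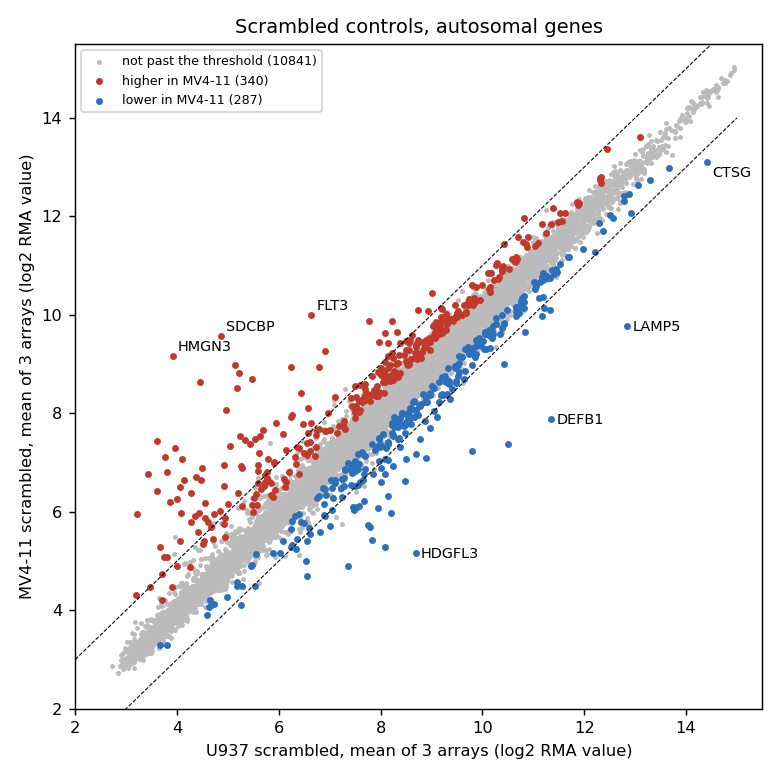
Mean log2 RMA value of the 3 U937 scrambled arrays (horizontal axis) against that of the 3 MV4-11 scrambled arrays (vertical axis), with 1 point for each of 11468 autosomal genes. Red points are the 340 genes higher in MV4-11 and blue points the 287 lower; dashed lines mark a 2-fold difference, and the genes farthest above it lie at the dim end of the U937 scale.

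The 12 largest differences toward MV4-11 among genes whose arrays did not overlap ran from 5.26 (HMGN3) to 3.22 (CD81). HMGN3, a nucleosome-binding protein of the high mobility group on chromosome 6, read 4.05, 4.27 and 3.43 in U937 and 8.50, 9.67 and 9.35 in MV4-11. It was 38.2-fold higher, a difference of 5.26 ± 0.29 (SE, n = 3 and 3, limma adjusted p = 1.57e-06). Its U937 arrays were all low and its MV4-11 arrays all high, with MV4-11 replicate 1 the lowest of the line. SDCBP on chromosome 8, the PDZ adaptor syntenin of membrane trafficking and exosome formation, read 5.44, 4.43 and 4.71 in U937 and 8.47, 10.43 and 9.81 in MV4-11, a difference of 4.71 ± 0.46 (SE, n = 3 and 3, limma adjusted p = 8.14e-05). NAV3 on chromosome 12, a microtubule-associated protein, read 4.62, 4.29 and 4.44 in U937 and 7.94, 9.50 and 8.44 in MV4-11, a difference of 4.18 ± 0.43 (SE, n = 3 and 3, limma adjusted p = 0.000129). Its other probe sets differed by -0.16 and 0.03, so this difference rests on 1 probe set. CEBPD on chromosome 8, a CCAAT/enhancer-binding transcription factor of myeloid and inflammatory gene expression, read 5.15, 5.12 and 5.13 in U937 and 8.22, 9.60 and 9.13 in MV4-11. The difference was 3.85 ± 0.40 (SE, n = 3 and 3, limma adjusted p = 0.000128), while its second probe set differed by 0.49 (adjusted p = 0.257). GGH, the lysosomal hydrolase that trims the glutamate tail of folates and of methotrexate, read 3.50, 3.69 and 3.66 in U937 and 6.49, 8.08 and 7.74 in MV4-11, a difference of 3.82 ± 0.41 (SE, n = 3 and 3, limma adjusted p = 0.000158). In both genes no array of MV4-11 came near those of U937, and again MV4-11 replicate 1 was lowest. FLT3 on chromosome 13 is the receptor tyrosine kinase that carries an internal duplication in MV4-11. It read 6.81, 6.66 and 6.44 in U937 and 9.33, 10.72 and 9.92 in MV4-11. It was 10.2-fold higher, a difference of 3.35 ± 0.32 (SE, n = 3 and 3, limma adjusted p = 7.22e-05). PDLIM1, a PDZ and LIM domain protein of the actin cytoskeleton, differed by 3.61 (adjusted p = 0.000129), and THSD7A, a membrane protein with thrombospondin domains, by 3.36 (adjusted p = 0.000818). NRIP1, a corepressor of nuclear receptors, differed by 3.34 (adjusted p = 9.42e-06) on this probe set and by 1.93 on its other one. CEP15, OXR1, an oxidation resistance gene, and CD81, a tetraspanin of leukocyte membranes, differed by 3.34 (adjusted p = 0.000216), 3.33 (adjusted p = 3.54e-05) and 3.22 (adjusted p = 0.00014). All 12 kept their call in every alternative in which they were tested.

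**Figure D2:**
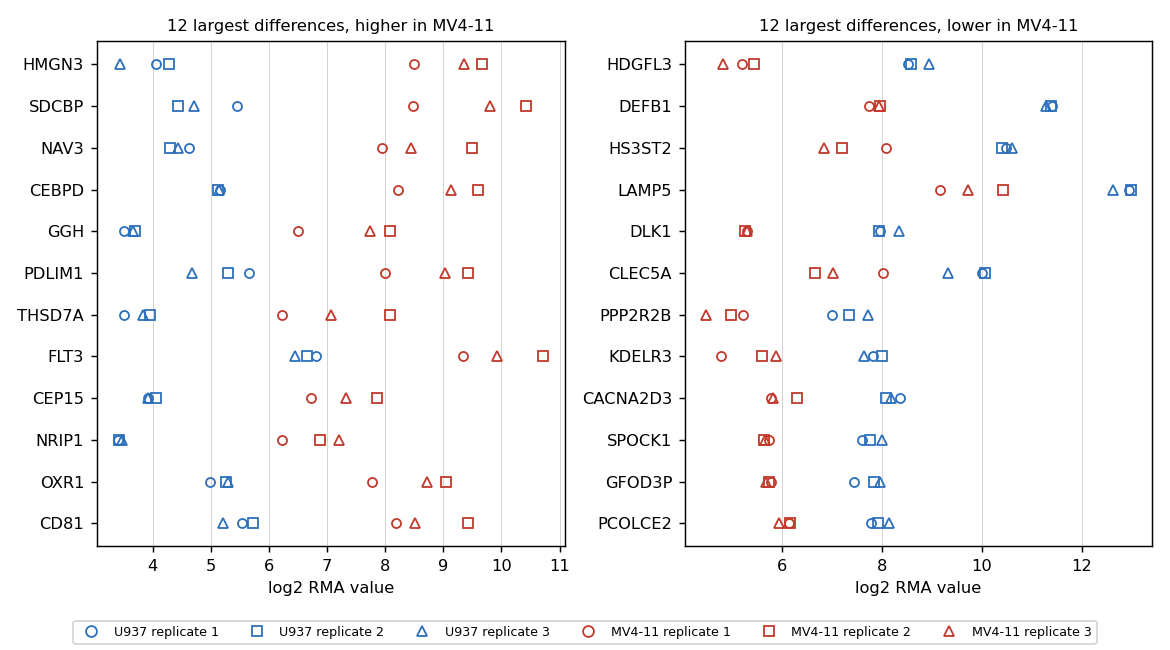
Log2 RMA value (horizontal axis) of each scrambled array for the 12 genes with the largest difference toward MV4-11 (left panel) and the 12 with the largest difference away from it (right panel). Blue marks are U937 and red marks MV4-11, with a circle, square and triangle for replicates 1, 2 and 3. In the left panel MV4-11 replicate 1 is the lowest MV4-11 array throughout. Genes were taken for both panels only where the lines did not overlap.

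The MV4-11 arrays differed from each other in a shared order at the genes higher in that line. Of the 33 genes at least 4-fold higher, 29 (87.9%) had replicate 1 lowest, replicate 3 in the middle and replicate 2 highest. That order held in 71 of the 94 genes at least 2-fold higher (75.5%), in 137 of the 340 called higher (40.3%) and in 1512 of all 11468 genes (13.2%). Against the U937 mean, the median of the 33 genes was 1.96, 3.44 and 2.94 in MV4-11 replicates 1, 2 and 3. Over all autosomal genes the same arrays had medians of -0.013, -0.033 and -0.04. The 11 genes at least 4-fold lower had medians of -2.43, -2.41 and -2.79, and the 53 at least 2-fold lower -1.38, -1.4 and -1.52. The 287 called lower had medians of -0.543, -0.637 and -0.71. In 96 of these 287 (33.4%) replicate 3 was lowest, replicate 2 in the middle and replicate 1 highest, against 20.2% of all genes. In the CHD4 shRNA arrays the 33 genes had medians of 2.49, 3.75 and 2.51 in MV4-11 and 0.10 to 0.20 in U937. Array numbers name the samples and have no order of their own. What the unequal level of the MV4-11 arrays reflects was not tested, and neither were the identity and purity of the cultures, on which each line difference here rests.

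**Figure D3:**
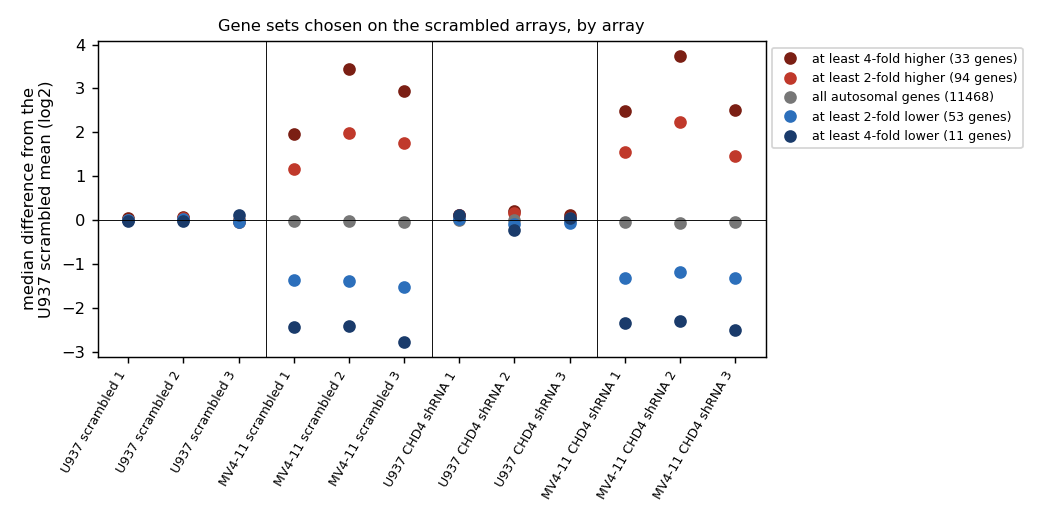
Median log2 difference from the U937 scrambled mean (vertical axis) in each of the 12 arrays (horizontal axis), for genes called at least 2-fold or 4-fold higher or lower in the scrambled comparison and for all autosomal genes. The 33 genes at least 4-fold higher range from 1.96 to 3.75 over the 6 MV4-11 arrays, and the 11 at least 4-fold lower from -2.31 to -2.79. The sets were chosen on the scrambled differences, with probe sets and an estimate of spread taken from all 12 arrays.

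The 12 largest differences away from MV4-11, again among genes whose arrays did not overlap, ran from -3.53 (HDGFL3) to -1.86 (PCOLCE2). HDGFL3, a hepatoma-derived growth factor relative on chromosome 15, read 8.53, 8.59 and 8.95 in U937 and 5.21, 5.44 and 4.83 in MV4-11. It was 11.6-fold lower in MV4-11, a difference of -3.53 ± 0.20 (SE, n = 3 and 3, limma adjusted p = 1.57e-06). Its other 4 probe sets were lower too, by -0.40 to -3.38, and 3 of them passed the threshold. DEFB1, a beta-defensin with antimicrobial activity, read 11.40, 11.37 and 11.28 in U937 and 7.74, 7.96 and 7.95 in MV4-11, a difference of -3.47 ± 0.21 (SE, n = 3 and 3, limma adjusted p = 2.64e-06). HS3ST2 on chromosome 16, a sulfotransferase of heparan sulfate, read 10.48, 10.41 and 10.61 in U937 and 8.09, 7.20 and 6.84 in MV4-11, a difference of -3.12 ± 0.28 (SE, n = 3 and 3, limma adjusted p = 4.67e-05). Absence of overlap was a condition of this choice of genes and is not a result. LAMP5 on chromosome 20, a lysosome-associated membrane protein found in plasmacytoid dendritic cells and neurons, read 12.93, 12.98 and 12.62 in U937 and 9.16, 10.43 and 9.72 in MV4-11, a difference of -3.07 ± 0.32 (SE, n = 3 and 3, limma adjusted p = 0.00014). DLK1, an imprinted ligand-like membrane protein of the Notch family on chromosome 14, read 7.97, 7.95 and 8.34 in U937 and 5.31, 5.26 and 5.30 in MV4-11, a difference of -2.80 ± 0.32 (SE, n = 3 and 3, limma adjusted p = 0.000269). Its MV4-11 arrays lay within 0.1 of each other. CLEC5A, a C-type lectin receptor of myeloid cells, read 10.00, 10.06 and 9.33 in U937 and 8.02, 6.66 and 7.03 in MV4-11, a difference of -2.56 ± 0.38 (SE, n = 3 and 3, limma adjusted p = 0.00171). PPP2R2B, a regulatory subunit of protein phosphatase 2A, differed by -2.46 (adjusted p = 5.25e-05), but by -0.42 (adjusted p = 0.17) on its other probe set. KDELR3, which returns proteins to the endoplasmic reticulum, differed by -2.40 (adjusted p = 7.45e-05) on its brightest probe set and by -4.72 (adjusted p = 2.97e-07) and -0.86 on the others. CACNA2D3, an auxiliary subunit of calcium channels, differed by -2.25 (adjusted p = 0.000641). The matrix proteoglycan SPOCK1 and the procollagen-processing enhancer PCOLCE2 differed by -2.10 (adjusted p = 0.000124) and -1.86 (adjusted p = 3.54e-05), and the pseudogene GFOD3P by -2.02 (adjusted p = 3.54e-05). All 12 kept their call in every alternative in which they were tested.

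Promoter sequences were read for the 2 largest differences in each direction with SDCBP and DEFB1 left out, to show how different the start regions of such genes are. Each runs 5′ to 3′ from 250 bases before to 50 bases after the gene's start, from RefSeq on GRCh38.p14, with CG dinucleotides in capitals. HMGN3 lies at chr6:79234633-79234932 on the minus strand, NAV3 at chr12:77830644-77830943 on the plus strand, HDGFL3 at chr15:83207774-83208073 on the minus strand and HS3ST2 at chr16:22813912-22814211 on the plus strand.
HMGN3: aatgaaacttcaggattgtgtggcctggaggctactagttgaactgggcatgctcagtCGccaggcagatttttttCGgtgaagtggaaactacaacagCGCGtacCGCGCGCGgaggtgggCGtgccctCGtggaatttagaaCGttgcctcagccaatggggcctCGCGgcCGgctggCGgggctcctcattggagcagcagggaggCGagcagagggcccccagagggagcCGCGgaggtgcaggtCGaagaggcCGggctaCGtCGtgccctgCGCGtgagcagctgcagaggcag
NAV3: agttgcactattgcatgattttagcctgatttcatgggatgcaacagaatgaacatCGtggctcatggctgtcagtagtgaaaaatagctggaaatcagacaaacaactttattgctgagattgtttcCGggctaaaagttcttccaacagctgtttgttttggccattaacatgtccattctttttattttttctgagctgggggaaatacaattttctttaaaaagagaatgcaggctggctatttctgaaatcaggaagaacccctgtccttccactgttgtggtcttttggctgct
HDGFL3: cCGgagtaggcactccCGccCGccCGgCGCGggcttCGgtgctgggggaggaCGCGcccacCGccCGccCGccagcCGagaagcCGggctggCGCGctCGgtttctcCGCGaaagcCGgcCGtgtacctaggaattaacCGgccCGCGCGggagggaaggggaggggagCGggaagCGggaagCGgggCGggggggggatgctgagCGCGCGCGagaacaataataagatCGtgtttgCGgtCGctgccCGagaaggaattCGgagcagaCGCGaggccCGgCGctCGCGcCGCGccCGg
HS3ST2: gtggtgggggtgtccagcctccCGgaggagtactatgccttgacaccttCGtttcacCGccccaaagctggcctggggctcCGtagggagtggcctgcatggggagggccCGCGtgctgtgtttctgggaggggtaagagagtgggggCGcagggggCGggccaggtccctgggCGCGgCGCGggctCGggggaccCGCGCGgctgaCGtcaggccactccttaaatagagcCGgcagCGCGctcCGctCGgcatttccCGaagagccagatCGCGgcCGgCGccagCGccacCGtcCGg
The HMGN3 window holds 24 CG dinucleotides, an observed over expected ratio of 0.831, and the NAV3 window 2, a ratio of 0.168. The HDGFL3 and HS3ST2 windows hold 47 and 30, ratios of 1.19 and 0.806. Both directions thus include CG-rich starts, and NAV3 alone of these 4 has a CG-poor one. A window was found for 9137 of the 11468 genes, with a median ratio of 0.801, and 27.4% of the windows had a ratio under 0.6. That share was 24 of 75 (32.0%) for genes at least 2-fold higher in MV4-11 and 13 of 39 (33.3%) for those at least 2-fold lower. At 4-fold it was 9 of 23 (39.1%) and 3 of 7 (42.9%). Over all called genes it was lower than in all windows, 60 of 281 (21.4%) for those higher and 56 of 232 (24.1%) for those lower. The letters TATAAA, searched on both strands, occurred in 8.32% of all windows, in 7 of the 75 and in 0 of the 39. These are descriptions of letters in a window, not of sites in use.

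The CHD4 shRNA arrays give the line difference again in other arrays, though all 12 shared the estimate of spread and the choice of probe sets. Same-numbered scrambled and CHD4 shRNA arrays of a line were also related, with a limma consensus correlation of 0.367. The counts below are therefore not from independent arrays. There 737 genes passed the threshold (6.43%), 420 higher in MV4-11 (3.66%) and 317 lower (2.76%). Of the 340 genes higher in the scrambled arrays, 338 had the same direction and 200 were called higher again, 58.8% of the 340 and 47.6% of the 420. Of the 287 lower genes, 281 had the same direction and 142 were called lower again, 49.5% of the 287 and 44.8% of the 317. The larger differences recurred more completely: 32 of the 33 genes at least 4-fold higher and 10 of the 11 at least 4-fold lower passed again. The exception among the 11 was CLEC5A, at -0.70 (adjusted p = 0.276) in the CHD4 shRNA arrays. HMGN3 stood there at 5.05, SDCBP at 5.48, FLT3 at 3.26, HDGFL3 at -3.51 and DEFB1 at -4.09. A test of whether the line difference depends on the hairpin (limma interaction) called 0 genes (0.0%), with 522 (4.55%) under an unadjusted p of 0.05. It called 0 as well when same-numbered arrays of a line were treated as related, with 1191 (10.4%) under that unadjusted p. With array weights, which did not converge, the interaction called 115.

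**Figure D4:**
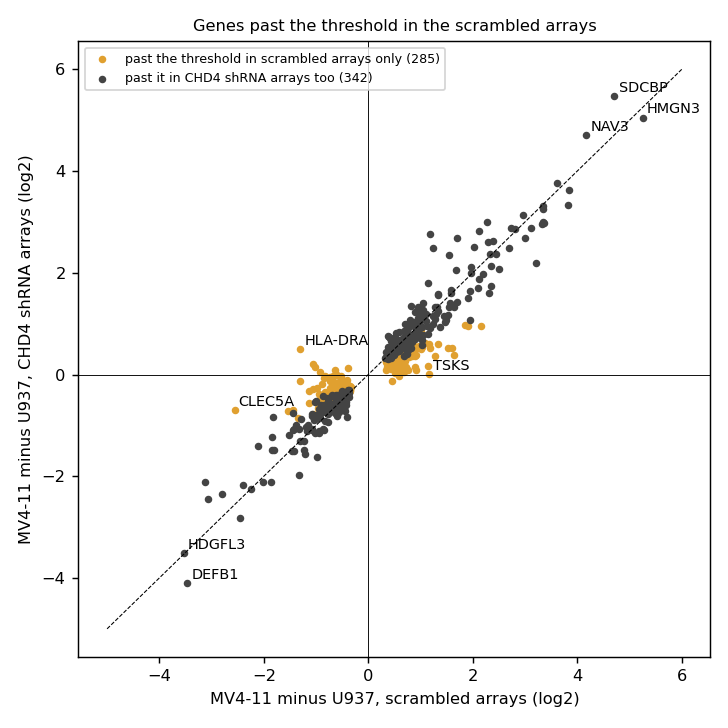
Log2 difference MV4-11 minus U937 in the scrambled arrays (horizontal axis) against that in the CHD4 shRNA arrays (vertical axis) for the 627 genes past the threshold in the scrambled arrays; the dashed line marks equal differences. Dark points, 342 genes, passed in the CHD4 shRNA arrays too and orange points, 285 genes, did not; HLA-DRA lies farthest above 0 among the genes lower in the scrambled arrays.

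Leukaemia and stem cell genes were called only toward MV4-11. Of 30 such genes measured, 6 were higher and 0 lower, 20% against 5.47% of all genes, while the median of the list was 0.005 against -0.03. The 6 include FLT3. WT1, a zinc finger transcription factor overexpressed in many leukaemias, read 4.81, 5.17 and 4.93 in U937 and 7.35, 8.97 and 7.91 in MV4-11, a difference of 3.11 ± 0.43 (SE, n = 3 and 3, limma adjusted p = 0.00114), and its other probe set differed by 0.73. MEF2C, a transcription factor of haematopoietic progenitors linked to KMT2A fusions, read 7.70, 7.84 and 7.80 in U937 and 9.34, 10.42 and 9.87 in MV4-11, a difference of 2.10 ± 0.31 (SE, n = 3 and 3, limma adjusted p = 0.00173). Neither gene's arrays overlapped between the lines. IGF2BP2, an RNA-binding protein, differed by 1.31 (adjusted p = 0.0155), the histone demethylase family member JMJD1C by 0.92 (adjusted p = 0.00514) and the clathrin assembly gene PICALM by 0.53 (adjusted p = 0.0173). Among 13 measured HOX and TALE homeobox genes, MEIS1 and PBX3 were higher and MEIS2 lower (23.1% called), with a list median of 0.017. MEIS1, a HOX cofactor, read 10.80, 10.79 and 10.97 in U937 and 11.45, 11.34 and 11.51 in MV4-11 (0.58, adjusted p = 0.033), its partner PBX3 differed by 0.61 (adjusted p = 0.026), and MEIS2 on chromosome 15 by -1.35 (adjusted p = 0.0287). MEIS1 differed by 0.12 in the CHD4 shRNA arrays (adjusted p = 0.641). HOXA9 and HOXA10 were not analysed here. On their brightest probe sets the other fusion genes did not pass the threshold: KMT2A differed by -0.05 (adjusted p = 0.851), AFF1 by -0.04 (adjusted p = 0.895) and MLLT10 by 0.35 (adjusted p = 0.132). A dimmer MLLT10 probe set did pass, at 0.48 (adjusted p = 0.0327), while its remaining ones differed by -0.03 to 0.22. The other PICALM probe sets differed by 0.08 to 0.47 and none passed (adjusted p from 0.0887 to 0.641). These calls thus depend on the probe set. The progenitor markers KIT and CD34 differed by -0.08 (adjusted p = 0.762) and -0.12 (adjusted p = 0.588). The call was lost for IGF2BP2 without U937 1 or 2 or MV4-11 2, MEIS1 without U937 1 or 2 or MV4-11 1, 2 or 3, MEIS2 without U937 1, 2 or 3 or MV4-11 1 or 3, and PBX3 without U937 1, 2 or 3 or MV4-11 2 or 3. The same held for PICALM without U937 1 or MV4-11 2 or 3 (adjusted p from 0.0627 to 0.126). Also below the threshold were PICALM with probe sets averaged (adjusted p = 0.056).

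HLA class II genes, whose products present peptides to helper T cells, were called only toward U937. Of 16 measured, 0 were higher and 5 lower in MV4-11, 31.2% against 5.47% of all genes, with a median of -0.27. HLA-DRA, the invariant alpha chain of HLA-DR, read 8.30, 8.39 and 8.05 in U937 and 6.76, 6.75 and 7.31 in MV4-11, a difference of -1.31 ± 0.26 (SE, n = 3 and 3, limma adjusted p = 0.0101). HLA-DRB1, its beta chain, read 9.26, 9.34 and 8.85 in U937 and 8.25, 8.17 and 8.25 in MV4-11, a difference of -0.93 ± 0.14 (SE, n = 3 and 3, limma adjusted p = 0.00185). HLA-DPB1, the beta chain of HLA-DP, read 5.93, 5.83 and 5.92 in U937 and 5.0, 5.16 and 5.34 in MV4-11, a difference of -0.73 ± 0.11 (SE, n = 3 and 3, limma adjusted p = 0.00282). In these 3 genes every U937 array lay above every MV4-11 array. CD74, the invariant chain that guides class II molecules, differed by -0.73 (adjusted p = 0.022), and HLA-DOB, a modulator of peptide loading, by -0.72 (adjusted p = 0.0114). HLA-DR beta genes are near-identical copies, and a probe set named for one can read another. In the CHD4 shRNA arrays the differences were 0.50 for HLA-DRA (adjusted p = 0.249), 0.05 for HLA-DRB1, -0.06 for HLA-DPB1 and -0.26 for CD74, none past the threshold. HLA-DOB passed there too, at -0.60 (adjusted p = 0.0279). The change in the HLA-DRA difference between the hairpins did not pass (interaction, adjusted p = 0.557). Of 17 measured HLA class I and peptide-loading genes, 1 was higher (5.88%), the aminopeptidase ERAP2, at 0.73 (adjusted p = 0.0259), and the median was -0.08. No longer called were CD74 without U937 1 or 2 or MV4-11 1 or 3, ERAP2 without U937 2 or 3 or MV4-11 2 or 3, HLA-DOB without U937 1 or MV4-11 2 or 3, and HLA-DRA without U937 2 or MV4-11 2 (adjusted p from 0.0501 to 0.12). Other settings left uncalled ERAP2 with the 6 scrambled arrays alone, and ERAP2 with a replicate block on the 6 scrambled arrays (adjusted p 0.0518 to 0.0642).

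Of 34 measured myeloid transcription factors CEBPD was called, 2.94% against 5.47% of all genes. SPI1, the ETS factor that specifies myeloid cells, differed by 0.03 (adjusted p = 0.896), CEBPA, of granulocyte commitment, by 0.11 (adjusted p = 0.575) and IRF8, of monocyte commitment, by -0.43 (adjusted p = 0.0909). Of 15 primary granule genes, 2 were lower (13.3%). The serine protease CTSG read 14.53, 14.60 and 14.13 in U937 and 12.96, 12.99 and 13.35 in MV4-11, a difference of -1.32 ± 0.17 (SE, n = 3 and 3, limma adjusted p = 0.000781), with no overlap, and neutrophil elastase ELANE differed by -0.67 (adjusted p = 0.0401). MPO, myeloperoxidase, differed by 0.39 (adjusted p = 0.212). None of 16 late granule and calgranulin genes or of 13 S100 genes was called, with medians of -0.068 and -0.14. Of 34 monocyte and macrophage markers, TLR2, a receptor of bacterial lipopeptides, was higher at 1.01 (adjusted p = 0.0108) and ANPEP, the aminopeptidase CD13 on chromosome 15, lower at -0.85 (adjusted p = 0.0031). Of 22 innate receptors, LILRA2, an activating leukocyte receptor, and NOD2, a sensor of peptidoglycan, were higher at 0.68 (adjusted p = 0.000455) and 0.83 (adjusted p = 0.0401), and CLEC5A was lower. The integrins of leukocyte adhesion went both ways. ITGAL, the alpha chain of LFA-1, read 8.07, 7.90 and 7.96 in U937 and 9.05, 9.95 and 9.34 in MV4-11 (1.47 ± 0.23, SE, n = 3 and 3, limma adjusted p = 0.00265). ITGAM, the alpha chain CD11b, read 7.76, 7.84 and 7.03 in U937 and 6.08, 5.95 and 6.25 in MV4-11 (-1.45 ± 0.21, SE, n = 3 and 3, limma adjusted p = 0.00136), with -0.20 on its other probe set. The arrays of the lines overlapped in neither integrin. ICAM3, a ligand of LFA-1, was higher at 0.60 (adjusted p = 0.00903), which made 2 higher and 1 lower of 27 adhesion genes. Of 18 chemoattractant receptors, CCR2, the receptor of the monocyte chemokine CCL2, was higher at 1.71 (adjusted p = 0.0171), with 0.53 (adjusted p = 0.257) on its other probe set. The shares called were 5.88% of the monocyte and macrophage markers, 13.6% of the innate receptors, 11.1% of the adhesion genes and 5.56% of the chemoattractant receptors. The threshold was not reached by CCR2 without U937 3 or MV4-11 2, ELANE without U937 1 or 2 or MV4-11 1, 2 or 3, NOD2 without U937 1, 2 or 3 or MV4-11 2 or 3, and TLR2 without U937 1 or MV4-11 2 or 3 (adjusted p from 0.0561 to 0.161). Under other settings the call was lost for ELANE with quantile normalization (adjusted p = 0.0503).

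Of 29 cytokine and growth factor receptors, 4 were higher in MV4-11 and 0 lower, 13.8% against 5.47% of all genes, with a median of 0.023. Beside FLT3 they were IL7R, the interleukin-7 receptor, at 1.09 (adjusted p = 0.0214), the interferon gamma receptor IFNGR1 at 0.52 (adjusted p = 0.0356) and the insulin receptor INSR at 0.42 (adjusted p = 0.00955). Of 28 cytokines and chemokines, 0 were higher and 2 lower (7.14%), the chemokine CCL5 at -0.58 (adjusted p = 0.0378) and the inflammasome product IL18 at -0.80 (adjusted p = 0.0225). Of 24 MAP kinase feedback and STAT5 target genes, 2 were higher (8.33%). PIM1, a serine kinase induced by STAT5 and by FLT3 signalling, read 8.39, 8.54 and 8.55 in U937 and 9.07, 9.28 and 9.53 in MV4-11, a difference of 0.80 ± 0.13 (SE, n = 3 and 3, limma adjusted p = 0.00358), with no overlap of the lines. DUSP10, a phosphatase of stress kinases, differed by 0.57 (adjusted p = 0.0343). The list median was 0.023. Interferon-stimulated genes went both ways, 3 higher and 2 lower of 34 (14.7%), with a median of -0.0067. IFITM1, a membrane restriction factor, was highest at 1.44 (adjusted p = 0.00503), followed by the GTPase GBP2 at 0.84 (adjusted p = 0.0173) and the ISG15 ligase HERC5 at 0.53 (adjusted p = 0.0375). USP18, which removes ISG15, and the GTPase MX2 were lower at -0.94 (adjusted p = 0.00189) and -0.39 (adjusted p = 0.0344). The call was lost for CCL5 and HERC5 without any 1 of the 6 arrays, DUSP10, IL7R and MX2 without U937 1, 2 or 3 or MV4-11 2 or 3, GBP2 without U937 3 or MV4-11 2 or 3, and IFNGR1 without U937 1, 2 or 3 or MV4-11 3. The same held for IL18 without U937 2 or 3 or MV4-11 1 or 2, and INSR without MV4-11 2 (adjusted p from 0.0505 to 0.157). Also below the threshold were CCL5 and IFNGR1 with a replicate block on 12 arrays, HERC5 with quantile normalization, IFNGR1 and MX2 with the 6 scrambled arrays alone, IFNGR1, INSR and MX2 with a replicate block on the 6 scrambled arrays, and INSR with probe sets averaged (adjusted p 0.0501 to 0.099).

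Among 22 G1 cell cycle genes the CDK inhibitors CDKN1B, at 0.68 (adjusted p = 0.00416), and CDKN2A, at 0.34 (adjusted p = 0.0286), were higher and 0 were lower, 9.09% called against 5.47% of all genes. MTAP, a neighbour of CDKN2A, differed by -0.13 (adjusted p = 0.708). Of 23 BCL2 family and caspase genes, 2 were higher and 0 lower (8.7%). BCL2, which restrains mitochondrial apoptosis, read 8.39, 8.42 and 8.91 in U937 and 9.42, 9.51 and 9.55 in MV4-11 (0.92 ± 0.14, SE, n = 3 and 3, limma adjusted p = 0.00188), but its other 3 probe sets differed by 0.12, -0.06 and -0.08. BIRC5, survivin, differed by 0.59 (adjusted p = 0.0355). No longer called were BIRC5 without U937 1 or 2 or MV4-11 2 or 3, and CDKN2A without U937 1 or 2 or MV4-11 1, 2 or 3 (adjusted p from 0.0564 to 0.15). Other settings left uncalled BCL2, BIRC5 and CDKN2A with probe sets averaged, BIRC5 and CDKN2A with a replicate block on the 6 scrambled arrays, and CDKN2A with the 6 scrambled arrays alone (adjusted p 0.0657 to 0.178).

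Of 33 mitotic genes, 1 was higher and 2 lower, 9.09% called against 5.47% of all genes, and 25 were above 0, with a median of 0.29. The phosphatase CDC25B was higher at 0.39 (adjusted p = 0.0479), and its relative CDC25C and the checkpoint kinase BUB1B on chromosome 15 were lower at -0.98 (adjusted p = 0.0249) and -0.51 (adjusted p = 0.0122). On its other probe sets CDC25C differed by -0.89 (adjusted p = 0.0252) and -0.12 (adjusted p = 0.666). Within U937 this list's median was -0.11, -0.14 and 0.25 in replicates 1, 2 and 3 around their mean, a spread as wide as the line difference. Of 17 listed histone genes, 16 were above 0, with a median of 0.51, and 2 were called (11.8%). They were H2AC17 on chromosome 6 at 0.95 (adjusted p = 0.0287) and H1-10 at 0.55 (adjusted p = 0.0373). H1-10 lies on chromosome 3, outside the histone cluster of chromosome 6. Of 34 DNA replication genes, with a median of -0.045, 1 was called (2.94%), GINS1 of the replicative helicase, lower at -0.58 (adjusted p = 0.0201). Of 22 MYC and ribosome biogenesis genes, 20 were below 0, with a median of -0.27, and 1 was called (4.55%), the pyrimidine synthesis enzyme CAD, at -0.45 (adjusted p = 0.0174). Around the U937 mean, the median of these 22 genes was -0.043, -0.09 and 0.147 in U937 replicates 1, 2 and 3. It was -0.127, -0.153 and -0.375 in those of MV4-11, so the spread within each line was close to the line difference. The threshold was not reached by BUB1B without MV4-11 3, CAD without U937 1 or 3 or MV4-11 3, CDC25B and H1-10 without U937 1 or 2 or MV4-11 1, 2 or 3, and CDC25C without U937 1, 2 or 3 or MV4-11 1 or 3. The same held for GINS1 without U937 1 or 3 or MV4-11 2 or 3, and H2AC17 without U937 1 or 2 or MV4-11 2 or 3 (adjusted p from 0.054 to 0.18). Under other settings the call was lost for CAD and CDC25B with a replicate block on the 6 scrambled arrays, CDC25B with median centring, and CDC25B with the 6 scrambled arrays alone (adjusted p 0.055 to 0.103).

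Of 12 measured subunits of NuRD, the remodelling complex that holds CHD4, HDAC2 was higher at 0.46 (adjusted p = 0.0123), 8.33% called against 5.47% of all genes. Of 25 Polycomb, SWI/SNF and DNA methylation genes EZH2, the Polycomb methyltransferase, was higher at 0.45 (adjusted p = 0.0267) (4.0%). Of 27 double-strand break repair genes 1 was higher, the checkpoint kinase CHEK1, at 0.50 (adjusted p = 0.0454), and 1 was lower (7.41%). The lower one was TP53BP1 on chromosome 15, at -0.91 (adjusted p = 0.000463), with -0.99 on its other probe set. Of 26 genes of excision, mismatch and crosslink repair, 3 were higher and 1 lower (15.4%). MGMT, which reverses alkylation of guanine, read 5.99, 5.53 and 5.68 in U937 and 6.35, 7.08 and 6.39 in MV4-11 (0.87 ± 0.19, SE, n = 3 and 3, limma adjusted p = 0.0171). Its lowest MV4-11 array stood above its highest U937 array. FANCE, of the Fanconi anaemia core complex, was higher at 0.56 (adjusted p = 0.00312), the ultraviolet damage sensor DDB2 at 0.69 (adjusted p = 0.0108), and OGG1, the glycosylase of oxidised guanine, was lower at -0.56 (adjusted p = 0.0369), with -0.44 and 0.06 on its other probe sets. The call was lost for CHEK1 and EZH2 without U937 1 or 2 or MV4-11 1, 2 or 3, DDB2 and HDAC2 without U937 1 or 2, MGMT without U937 2 or 3 or MV4-11 2, and OGG1 without U937 2 or 3 or MV4-11 2 or 3 (adjusted p from 0.0525 to 0.189). Also below the threshold were CHEK1 and OGG1 with probe sets averaged, CHEK1 and OGG1 with the 6 scrambled arrays alone, CHEK1 with a replicate block on 12 arrays, and CHEK1, HDAC2 and OGG1 with a replicate block on the 6 scrambled arrays (adjusted p 0.0501 to 0.0996).

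None of 29 cytosolic ribosomal protein genes, 34 respiratory chain genes and 23 ATF4 and amino acid supply genes was called, with medians of 0.06, 0.053 and 0.023. ABCA1, the exporter of cholesterol to apolipoproteins, read 4.55, 4.74 and 4.10 in U937 and 6.0, 7.27 and 6.68 in MV4-11, a difference of 2.19 ± 0.30 (SE, n = 3 and 3, limma adjusted p = 0.00111). No ABCA1 array overlapped between the lines, and it was the 1 call among 22 cholesterol and fatty acid genes. Its other probe sets differed by 1.53 and 0.06. Of 25 antioxidant genes, glutathione transferase GSTP1 and peroxiredoxin PRDX2 were higher at 0.92 (adjusted p = 0.00466) and 0.70 (adjusted p = 0.0141), and PRDX2 differed by -0.06 to 0.26 on its other 3 probe sets. Of the cholesterol and fatty acid genes 4.55% were called and of the antioxidant genes 8.0%, against 5.47% of all genes. Of 16 heat shock genes the chaperones HSPA4 and DNAJB6 were higher at 0.42 (adjusted p = 0.0254) and 0.70 (adjusted p = 0.0372) and the inducible HSPA6 lower (-1.39, adjusted p = 0.000671), 18.8% of the list. Of 26 lysosomal genes the carboxypeptidase CTSA and the protease CTSH on chromosome 15 were lower at -0.66 (adjusted p = 0.0348) and -0.76 (adjusted p = 0.00552). Of 30 glycolysis and hypoxia genes, pyruvate kinase PKM on chromosome 15 and the kinase PDK1 were lower at -0.83 (adjusted p = 0.0222) and -0.73 (adjusted p = 0.0199). Of 21 endoplasmic reticulum chaperones EDEM1, of misfolded glycoprotein disposal, was lower at -0.81 (adjusted p = 0.00743). Called were 7.69% of the lysosomal genes, 6.67% of the glycolysis and hypoxia genes and 4.76% of the endoplasmic reticulum chaperones. No longer called were CTSA and PKM without U937 1, 2 or 3 or MV4-11 2 or 3, DNAJB6 without U937 1, 2 or 3 or MV4-11 1 or 2, HSPA4 without U937 1 or 2 or MV4-11 2 or 3, and PDK1 without U937 1 or 3 or MV4-11 2 or 3. The same held for PRDX2 without U937 1 or 2 or MV4-11 2 (adjusted p from 0.0526 to 0.151). Other settings left uncalled CTSA and DNAJB6 with a replicate block on 12 arrays, and HSPA4, PKM and PRDX2 with probe sets averaged (adjusted p 0.0546 to 0.107).

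Among lists of other lineages, 10.5% of B-cell genes, 4.17% of T and NK cell genes, 5.88% of erythroid and megakaryocyte genes, 4.0% of genes of other tissues and 7.69% of testis and germ cell antigens were called, against 5.47% of all genes. Of 19 B-cell genes the coreceptor CD72 was higher at 0.80 (adjusted p = 0.0272) and the scaffold BANK1 lower at -0.50 (adjusted p = 0.0226). Of 24 T and NK cell genes CD4, which monocytes also carry, was lower at -0.61 (adjusted p = 0.00743), with -0.27 on its other probe set. Of 17 erythroid and megakaryocyte genes TRIM58, a ubiquitin ligase of late erythropoiesis, was lower at -1.08 (adjusted p = 0.0038). None of 9 mast cell, basophil and eosinophil genes was called. Of 25 genes of other tissues the troponin TNNT1 was higher at 0.77 (adjusted p = 0.000642), and of 13 testis and germ cell antigens TSKS, a substrate of testis kinases, was higher at 1.17 (adjusted p = 0.00316), against 0.01 in the CHD4 shRNA arrays and -0.18 on its other probe set. The medians of these 6 lists ran from -0.093 to 0.077. The threshold was not reached by BANK1 without U937 2 or 3 or MV4-11 1 or 3, and CD72 without U937 1, 2 or 3 or MV4-11 2 or 3 (adjusted p from 0.0575 to 0.0985). Under other settings the call was lost for TSKS with probe sets averaged (adjusted p = 0.0753).

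Chromosome 15 stood apart from the other autosomes. Of its 360 measured genes (3.14% of all), 61 were lower in MV4-11 and 6 higher, so 18.6% were called against 5.47% of all genes, and it held 21.3% of all 287 lower calls. The median difference of its genes was -0.20, or 86.9% of the U937 signal, and the medians of the other 21 autosomes ran from -0.077 (chromosome 21) to 0.02 (chromosome 18). All 3 MV4-11 arrays showed it: against the U937 mean the chromosome's median was -0.193, -0.203 and -0.198. Taken relative to the other autosomes of the same array, it was -0.175 ± 0.0126 (SD, n = 3) in MV4-11 and 0.0011 ± 0.0019 (SD, n = 3) in U937. These values did not overlap, but the baseline is the mean of the same U937 arrays, which holds theirs near 0 with little spread. By the same measure the U937 CHD4 shRNA arrays, outside that baseline, stood at 0.013, 0.017 and 0.035. The MV4-11 CHD4 shRNA arrays stood at -0.175, -0.175 and -0.14. The chromosome was singled out for this shift, so it is given with no test. The MV4-11 CHD4 shRNA arrays had chromosome medians of -0.225, -0.242 and -0.177, and the U937 ones of 0.0033 to 0.017. Of the 360 genes, 292 were below 0 (81.1% against 55.9% on the other autosomes), and in 174 all MV4-11 arrays lay below all U937 arrays (48.3% against 13.3%). Genes of above-median brightness had a median of -0.28 here and 0.02 elsewhere, and dimmer genes one of -0.11 here and -0.057 elsewhere. Split by position into 9 runs of 40 neighbouring genes, the medians were -0.065 from HERC2P3 to ZNF770, -0.34 from MEIS2 to TMEM62, and -0.135 to -0.295 in the other 7. The first run held 4 of the 6 higher calls and 3 lower ones. Of windows of 15 neighbouring genes that did not overlap, the 4 lowest in the autosomes all lay on chromosome 15, and the lowest, from BAHD1 to ITPKA, had a median of -0.44 and 7 lower calls. SPINT1, an inhibitor of serine proteases, read 6.90, 6.85 and 6.91 in U937 and 5.73, 6.10 and 6.0 in MV4-11, a difference of -0.94 ± 0.10 (SE, n = 3 and 3, limma adjusted p = 0.000152). VPS13C, a lipid transfer protein of the endoplasmic reticulum, read 11.31, 11.37 and 11.32 in U937 and 10.16, 9.98 and 10.15 in MV4-11, a difference of -1.24 ± 0.14 (SE, n = 3 and 3, limma adjusted p = 0.000216), with 0.15 (adjusted p = 0.755) on its other probe set. MGA, a MAX partner that opposes MYC, differed by -1.02 (adjusted p = 0.0114) and the ubiquitin ligase NEDD4 by -0.62 (adjusted p = 0.0217). Against this direction NDN, an imprinted growth suppressor near the centromere, read 5.63, 5.40 and 5.29 in U937 and 6.78, 8.02 and 7.36 in MV4-11, a difference of 1.95 ± 0.34 (SE, n = 3 and 3, limma adjusted p = 0.00468). These 5 genes were chosen after their values were seen. Copy number was not measured in these files, and what the shift reflects was not tested. The call was lost for NEDD4 without U937 1, 2 or 3 or MV4-11 2 or 3 (adjusted p from 0.0596 to 0.0951). Also below the threshold were VPS13C with probe sets averaged (adjusted p = 0.0832).

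**Figure D5:**
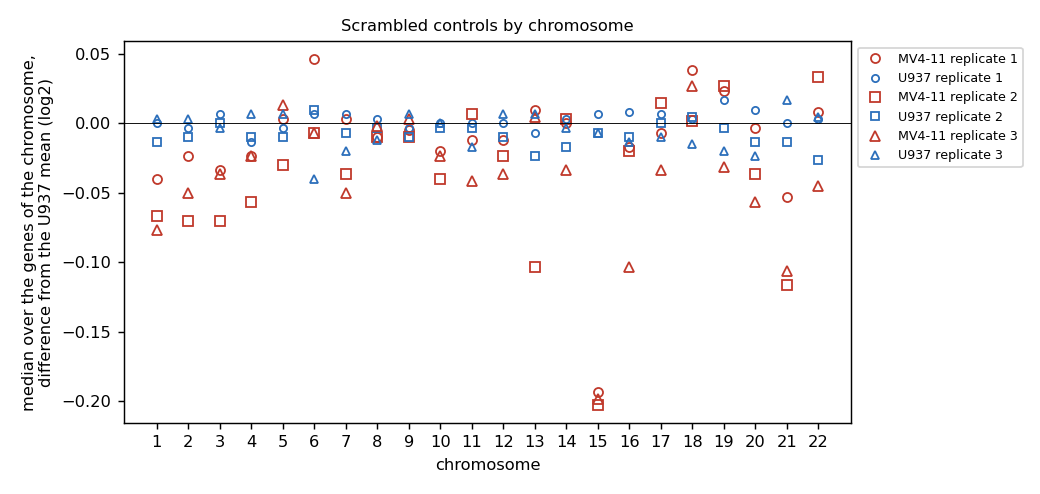
Median, over the measured genes of each autosome (horizontal axis), of the log2 difference from the U937 scrambled mean (vertical axis), for the 3 MV4-11 arrays (red) and the 3 U937 arrays (blue); circle, square and triangle stand for replicates 1, 2 and 3. The 3 MV4-11 arrays lie together at -0.193 to -0.203 on chromosome 15, and the autosome with the next lowest median, 21, has them at -0.053, -0.117 and -0.107.

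On the other autosomes calls leaned toward MV4-11, 334 higher and 226 lower of 11108 genes. Chromosome 18 had 17 higher and 2 lower calls among 174 genes (10.9% called), 7 of the higher ones in its first 44 genes, from USP14 to SEH1L, where the median was 0.14. Chromosome 6 had 39 higher and 8 lower among 673 (6.98% called). Chromosome 19 had 34 and 6 among 810 (4.94%), and chromosome 8 had 22 and 7 among 434 (6.68%), against 5.47% of all genes. Chromosome 8 held 5 of the 33 genes at least 4-fold higher. Chromosome 17 was called least, at 2.0% of 700 genes. The highest windows of 15 neighbouring genes were H1-2 to H2BC9 in the histone cluster of chromosome 6, at 0.34 with 0 calls, and ADGRG6 to TAB2 on the same chromosome, at 0.33 with 4 higher calls.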

How the data were processed

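Total RNA (500 ng) was labelled with biotin for Affymetrix arrays, per the labels' protocols. Per the submitters' processing notes the authors ran RMA, which corrects background, normalizes arrays by quantiles and summarises probe sets, and they deposited its log2 values. The sources used here do not give its version or say if the 12 arrays were run as 1 set. Quantile normalization hides a change shared by most genes, and background compresses the folds of dim genes. Values ran from 2.54 to 15.11, and the number of arrays limits the precision.

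Of 22277 probe sets, 62 controls were left out; 19064 of the others had 1 symbol in the platform annotation, 1043 several and 2108 none, and those with several or none were not used. RefSeq gene identifiers matched 19052. Each gene was read from its brightest probe set by the mean of 12 arrays. Genes outside the 22 autosomes (495) were tested but not reported.

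One limma 3.58.1 model (R 4.3.3, lmFit, eBayes) with 4 groups was fitted to all 12 arrays, with 8 residual and 4.66 prior degrees of freedom. Benjamini-Hochberg adjustment covered 11963 genes, with a threshold of 0.05, and each adjusted p of a gene comes from this fit. The script was tested on simulated data. Named genes were the 12 largest non-overlapping differences in each direction, up to 4 called members per list and direction, fixed landmark genes, and others marked as chosen afterwards. The genes and the 42 lists (965 of 1111 entries measured) were chosen with earlier results of these data known. Lists are described by counts and medians, without a test, and 1 of them is not reported here. Replicate numbers did not pair the lines. Alternatives changed the normalization, filter, probe set rule, variance model, threshold, blocking and arrays used.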

Additional observations from a re-analysis of the deposited data

How the results depend on the processing

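The 24 genes with the largest differences kept their direction and call in each alternative that tested them. Of 126 named genes past the threshold, over up to 16 alternatives that leave out the threshold of 0.01, 71 did so throughout, 31 lost the call only in fits without 1 array and 24 under another alternative. Leaving out 1 array gave 303 to 716 calls, 155 to 395 higher and 143 to 321 lower, with 66 to 124 and 43 to 68 at least 2-fold higher and lower. At a threshold of 0.01 there were 252 calls, 134 higher and 118 lower, and 227 in the CHD4 shRNA arrays. With array weights there were 1441 calls, 776 higher and 665 lower, with 4938 in the CHD4 shRNA arrays and 115 for the interaction, but the weights did not converge: 1 array, MV4-11 CHD4 shRNA 1, had a weight of 20.1 and the others 0.356 to 1.67. The interaction called 0 genes in the other alternatives that could test it. Without the dimmest 25% of genes, 62 rather than 94 were at least 2-fold higher and 51 rather than 53 at least 2-fold lower. Other settings gave 625 to 793 called genes, or 899 probe sets. Same-numbered arrays of the lines correlated at 0.056, -0.025 and -0.102 in their deviations, so the numbers were not taken as pairs. A replicate block gave 727 calls on 12 arrays, 577 of them among the 627, and 730 on the 6 scrambled arrays, 491 of them shared. Of calls shared with the 627, 0 changed direction in any alternative except 1 gene with probe sets averaged. Without detection calls, differences at the dim end are the least certain in size.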

Other observations

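Several secreted, matrix and growth factor genes were among the differences, and the genes of these paragraphs were chosen after their values were seen. BTG3, an antiproliferative gene, differed by 3.00 (adjusted p = 0.00112), and by 2.92 and 0.02 on its other probe sets. ENPP2, the enzyme autotaxin that makes lysophosphatidic acid, read 4.30, 4.35 and 3.67 in U937 and 6.76, 7.42 and 7.01 in MV4-11, a difference of 2.96 ± 0.42 (SE, n = 3 and 3, limma adjusted p = 0.00134). PDGFC, a platelet-derived growth factor, read 3.28, 3.99 and 3.58 in U937 and 5.15, 7.51 and 6.61 in MV4-11, a difference of 2.81 ± 0.53 (SE, n = 3 and 3, limma adjusted p = 0.00767). MV4-11 replicate 1 was lowest of its line in both genes, and neither overlapped U937. The collagen gene COL5A1 differed by 2.30 (adjusted p = 3.54e-05), the antiangiogenic serpin SERPINF1 by 2.29 (adjusted p = 0.00145) and INHBA, a subunit of activin, by 2.11 (adjusted p = 0.00111), with 0.11 (adjusted p = 0.726) on the other INHBA probe set. LGR4, a receptor of R-spondins, differed by 2.74 (adjusted p = 0.00139) and the histone deacetylase HDAC4 by 2.11 (adjusted p = 0.0118). The cold shock protein YBX3 differed by 2.69 (adjusted p = 0.000466) on its brightest probe set and by 6.32 (adjusted p = 1.65e-06) and -0.22 (adjusted p = 0.408) on the others. The mitotic checkpoint gene CHFR differed by 1.86 (adjusted p = 0.00608) and TGFBI, a matrix protein, by 1.61 (adjusted p = 0.00468). CYP1B1, a xenobiotic monooxygenase, differed by 1.64 (adjusted p = 0.00139), and by 0.05 to 1.47 on its other 3 probe sets. The receptor kinase AXL differed by 1.17 (adjusted p = 0.0498) in the scrambled arrays and by 2.77 in the CHD4 shRNA arrays, but by -0.01 on its other probe set. No longer called were AXL without U937 1, 2 or 3 or MV4-11 2 or 3, and HDAC4 without MV4-11 3 (adjusted p from 0.0523 to 0.189). Other settings left uncalled AXL with eBayes with a trend, and AXL with probe sets averaged (adjusted p 0.0618 to 0.0806).

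Single genes lower in MV4-11, chosen in the same way, follow. TBXA2R, the thromboxane receptor, read 8.65, 8.73 and 9.29 in U937 and 6.90, 7.17 and 7.20 in MV4-11, a difference of -1.80 ± 0.19 (SE, n = 3 and 3, limma adjusted p = 0.000158), with -0.12 to -1.01 on its other 3 probe sets. PTGER2, a prostaglandin E2 receptor, differed by -1.20 (adjusted p = 0.00322), and ALOX5AP, which feeds leukotriene synthesis, by -1.07 (adjusted p = 0.00957), against 0.20 (adjusted p = 0.58) in the CHD4 shRNA arrays. FCER2, the low-affinity IgE receptor, differed by -1.31 (adjusted p = 4.95e-05) and FCGR2B, the inhibitory IgG receptor, by -1.28 (adjusted p = 0.00134). The kinesin KIF5C, the membrane protein TMEM45A and the protease FAP differed by -1.84 (adjusted p = 1.01e-05), -1.85 (adjusted p = 3.54e-05) and -1.44 (adjusted p = 0.000939). In these 8 genes no array of one line overlapped the other. The threshold was not reached by ALOX5AP without U937 1 or 2 (adjusted p from 0.0507 to 0.0533). Zinc finger genes named ZNF were called 18 times higher and 2 times lower among 228 (7.89% higher, against 2.96% of all genes), a median of 0.052, and the 103 on chromosome 19 were called 11 times higher and 0 lower (10.7% higher). ZNF91, a repressor of retrotransposons, and ZNF562 differed by 1.62 (adjusted p = 0.00114) and 1.58 (adjusted p = 0.0162). The call was lost for ZNF562 without U937 1 or MV4-11 2 (adjusted p from 0.0627 to 0.0836).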
